A study of Rattus norvegicus with 4 samples.

Results

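Smooth muscle and pericyte contractile genes were examined in RNA of the rat carotid body (CB), which senses the oxygen of arterial blood. The group was defined by symbol as Acta2, Actg2, Tagln, Cnn1, Smtn, Lmod1, Myh11, Mylk, Des and Cspg4. These are 10 of the 32883 genes listed, and all 10 were among the 13843 genes tested. RNA was sequenced from whole CBs of Sprague Dawley rats, with 2 libraries from neonates (day 5) and 2 from adults (day 21). Each library was a pool of animals, 6 pups or 3 adults by the series text, while the methods of the study give larger pools and more replicates than the 2 libraries per age used here, and both sexes were included. Adults were littermates left to grow to the later age, and the labels name no treatment at either age. The libraries held between 36286191 and 39476110 estimated counts, so that 3 counts, used as the lower limit of detection, equal 0.0760 to 0.0827 CPM (counts scaled to a common library total). This limit covers counting error only. CPM are given on the total of each library, before TMM scaling.

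Mural cells are the smooth muscle cells of arteries and arterioles and the pericytes of capillaries, which wrap the endothelium and set the width of the vessel. In these cells a rise in calcium activates myosin light chain kinase, the product of Mylk, and the phosphorylated smooth muscle myosin, whose heavy chain is encoded by Myh11, then pulls on filaments of smooth muscle actin. The genes of this apparatus are classical targets of serum response factor (SRF) and its coactivator myocardin, which act through a DNA element named the CArG box. The CB is among the most densely vascularised organs, and blood flow through it is under the control of these cells.

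The promoter sequences show where this element lies close to a transcription start. RefSeq windows of 300 bases (assembly GRCr8), with 250 bases before and 50 after the start, were found for 7 of the 10 genes, and Myh11, Tagln and Lmod1 had no entry. An exact CArG box of 10 bases was searched for on both strands, and so was a form with 1 G or C in its core of 6 A or T. Exact boxes were held by 1.64% of all 33469 windows and the looser form by 8.10%. Of the 7 genes, none had the exact box and Acta2 alone had the looser form, with one beginning 134 and one 84 bases before the start. The Actg2 and Mylk windows, both on the minus strand, end at bases 117594289 and 79498824. Their genes reach to 117604379 and 79535450, so these windows lie at inner starts and do not cover the upstream end of the gene. Srf, which encodes the factor itself, had a pair of exact boxes beginning 81 and 61 bases before the start. The windows of Acta2 and Srf are printed for these matches, that of Des because it is one of the genes with the largest change between ages, and that of Smtn because its level barely differed. Capitals mark the matches, and a window without capitals holds neither form. A match is a run of letters and was not tested for binding, and no match says only that the letters are not in the window.
Acta2 (chr1:241172454-241172753, minus strand): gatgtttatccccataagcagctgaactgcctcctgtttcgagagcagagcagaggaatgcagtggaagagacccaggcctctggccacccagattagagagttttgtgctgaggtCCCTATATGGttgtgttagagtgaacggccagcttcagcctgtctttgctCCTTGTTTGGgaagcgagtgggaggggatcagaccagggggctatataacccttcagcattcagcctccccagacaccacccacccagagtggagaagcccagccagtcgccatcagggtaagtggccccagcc
Srf (chr9:21923826-21924125, plus strand): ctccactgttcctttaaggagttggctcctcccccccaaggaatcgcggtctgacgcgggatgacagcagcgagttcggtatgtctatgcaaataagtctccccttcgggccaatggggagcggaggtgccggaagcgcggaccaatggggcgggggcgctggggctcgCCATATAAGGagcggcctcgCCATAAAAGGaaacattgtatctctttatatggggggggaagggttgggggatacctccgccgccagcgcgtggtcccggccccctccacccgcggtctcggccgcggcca
Des (chr9:84299376-84299675, plus strand): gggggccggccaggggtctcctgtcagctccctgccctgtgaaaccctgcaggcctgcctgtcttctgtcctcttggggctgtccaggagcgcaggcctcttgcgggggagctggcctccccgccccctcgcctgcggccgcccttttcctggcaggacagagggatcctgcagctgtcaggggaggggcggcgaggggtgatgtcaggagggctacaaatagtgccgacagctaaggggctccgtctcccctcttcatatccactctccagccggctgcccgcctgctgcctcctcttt
Smtn (chr14:82644465-82644764, minus strand): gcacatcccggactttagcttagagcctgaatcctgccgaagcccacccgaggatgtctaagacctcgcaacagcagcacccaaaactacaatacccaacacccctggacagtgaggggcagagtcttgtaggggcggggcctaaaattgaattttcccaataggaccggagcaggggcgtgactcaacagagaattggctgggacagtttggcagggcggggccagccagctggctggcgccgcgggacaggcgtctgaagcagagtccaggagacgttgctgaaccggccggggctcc

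The labelled tissue was checked against its markers. Genes of the sensory glomus cells were present at high levels in every library, with 917, 781, 1517 and 1242 CPM of Th, the rate-limiting enzyme of dopamine synthesis, in neonate replicates 1 and 2 and adult replicates 1 and 2. Pdgfrb and Rgs5, listed here as mural cell genes, were each at 247 CPM or more in every library. Parathyroid genes were found in the neonatal libraries, where Pth, the parathyroid hormone gene, reached 1595 CPM in replicate 1 and 194 CPM in replicate 2, while adults had none, so neonate replicate 1 stands apart and values that changed without it are given. Of the 7 heart muscle genes, Actc1, Myh6, Myh7, Myl7 and Nppa were each at 0.286 CPM or less in every library, while the troponin genes Tnnt2 (5.22 and 6.49 CPM in neonates, 2.49 and 2.43 CPM in adults) and Tnni3 (2.18 and 2.13 CPM in neonates, 0.847 and 1.05 CPM in adults) were over 2-fold higher in neonates. Of the skeletal muscle genes, Myog and Mb were at or below 0.55 CPM in every library, and the summed level of the 10 genes listed was 25.5 and 30.8 CPM in neonates and 54.3 and 60.0 CPM in adults, of which Myh3, an embryonic skeletal myosin, made up 35.9 and 34.6 CPM in adults.

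Most of the genes were lower in neonates, Smtn and Actg2 were slightly higher, and Acta2 and Cnn1 did not pass the test (edgeR's quasi-likelihood test after TMM scaling, at an adjusted p under 0.05). In counts, 6 of 10 were lower, where 31.1% of all genes tested were, and 2 of 10 were higher, where 31.2% of all genes tested were. With a change of at least 2-fold asked for as well, Lmod1 and Des were lower in neonates, 2 of 10 against 13.2% of all genes tested, and none of the 10 was higher, against 7.68%. No test of the group as a whole was made. Their median log2 fold change, neonate over adult, was -0.37, against -0.0029 over all genes tested. The share of each library from mitochondrially encoded genes was 18.7% and 15.6% at day 5 but 9.06% and 9.08% at day 21, and the part of this difference in the values of the 10 genes was not tested. In bulk RNA, fewer mural cells and less of an RNA per mural cell cannot be told apart.

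**Figure D1:**
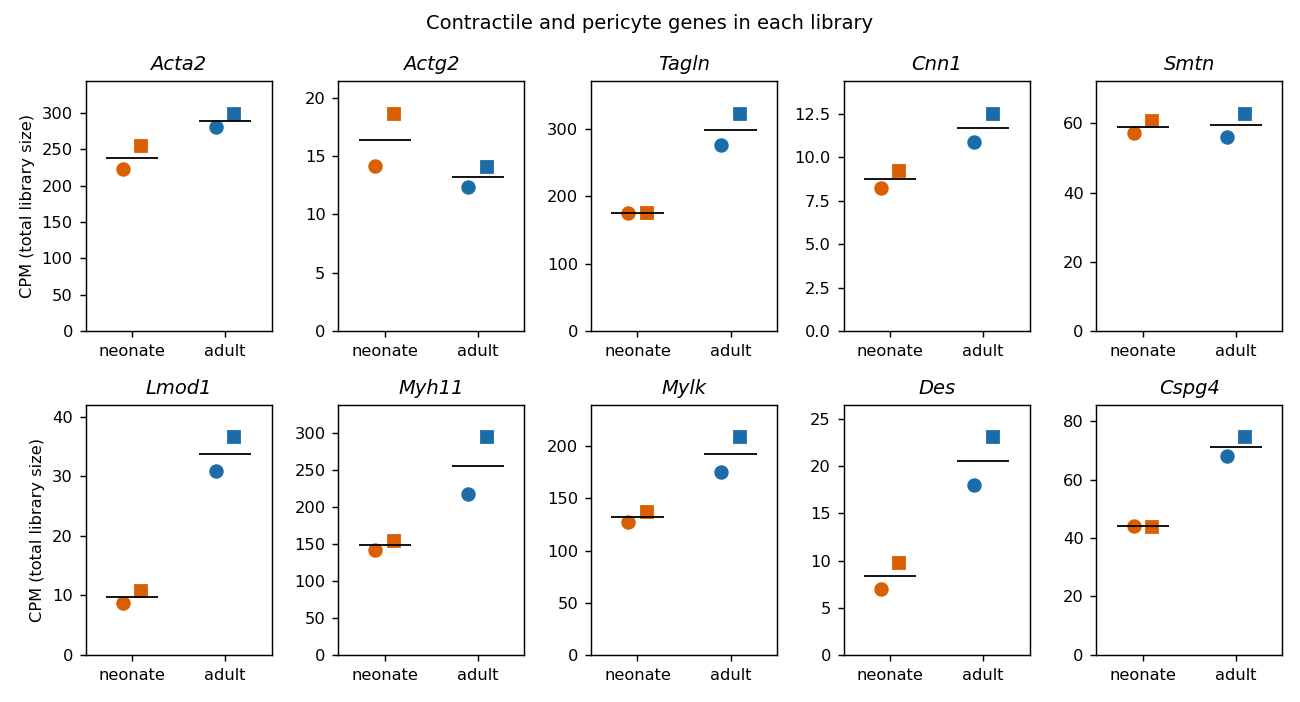
Level of the 10 genes in each library, in CPM on total library size, with a linear axis from 0 in each panel; orange marks neonates, blue marks adults, circles replicate 1, squares replicate 2, and bars the mean of the 2 libraries. Lmod1, Des, Myh11, Tagln, Cspg4 and Mylk lie lower in both neonatal libraries, and on this scale so do Acta2 and Cnn1. Smtn lies between 56.1 and 62.8 CPM at both ages, and Actg2 is highest in neonate replicate 2 at 18.6 CPM.

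Of the actins, Acta2 encodes the smooth muscle alpha-actin of vessel walls. Its level was 222 and 255 CPM in the neonatal libraries and 279.9 and 299 CPM in the adult libraries. Both adult values were above both neonatal ones on this scale, but after TMM scaling the ages overlapped. The log2 fold change was -0.03 (standard error 0.085, edgeR adjusted p = 0.74). Scaled to library size alone it was -0.28 (edgeR adjusted p = 0.032), so whether Acta2 differed between ages turned on the scaling. Without neonate replicate 1 its direction turned (0.045, edgeR adjusted p = 0.74).

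Actg2 encodes the gamma-actin that dominates in visceral smooth muscle. It moved the other way, with 14.1 and 18.6 CPM in neonates and 12.4 and 14.1 CPM in adults, where neonate replicate 2 was highest and the other 3 libraries lay close together. The log2 fold change was 0.55 (standard error 0.16, edgeR adjusted p = 0.013), or 1.47-fold higher in neonates. The call was lost without neonate replicate 2 (0.39, edgeR adjusted p = 0.072), without adult replicate 1 (0.44, edgeR adjusted p = 0.085) and with library size alone (0.31, edgeR adjusted p = 0.14), each in the same direction. The actin genes have nearly identical coding sequences, so reads may be shared among them, although the estimates of Acta2 and Actg2 were whole numbers in every library.

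Among the partners of the actin filament, Lmod1 changed most. It encodes leiomodin 1, which nucleates actin filaments in smooth muscle. Lmod1 was at 8.66 and 10.7 CPM in neonates and 30.9 and 36.5 CPM in adults, with a wide gap between the ages, and was 2.94-fold lower in neonates (log2 fold change -1.55, standard error 0.14, edgeR adjusted p = 2.4e-05). It kept its call and a change of over 2-fold without any 1 of the libraries, between -1.69 and -1.42.

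Tagln encodes transgelin (SM22 alpha), an early marker of smooth muscle that crosslinks actin. Its level was 175 and 176 CPM in neonates and 275 and 322 CPM in adults. The neonatal libraries were nearly equal and both below the adult ones, and the log2 fold change was -0.52 (standard error 0.091, edgeR adjusted p = 0.0010), or 1.44-fold lower in neonates.

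Cnn1 encodes calponin 1, which damps the myosin ATPase. Its level was low, 8.26 and 9.19 CPM in neonates and 10.9 and 12.5 CPM in adults. The ages did not overlap, but the difference did not pass the test (log2 fold change -0.18, standard error 0.17, edgeR adjusted p = 0.39).

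Smtn encodes smoothelin, a marker of fully contractile smooth muscle. It had 57.4 and 60.6 CPM in neonates against 56.1 and 62.8 CPM in adults, so the neonatal values fell between the adult ones. TMM scaling gave a log2 fold change of 0.23 (standard error 0.091, edgeR adjusted p = 0.0497), at the edge of the threshold. That call was lost in 9 of 13 alternatives, and with library size alone the direction reversed (-0.012, edgeR adjusted p = 0.92). In 3 libraries its estimate is fractional, which arises when reads fit more than one transcript source.

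**Figure D2:**
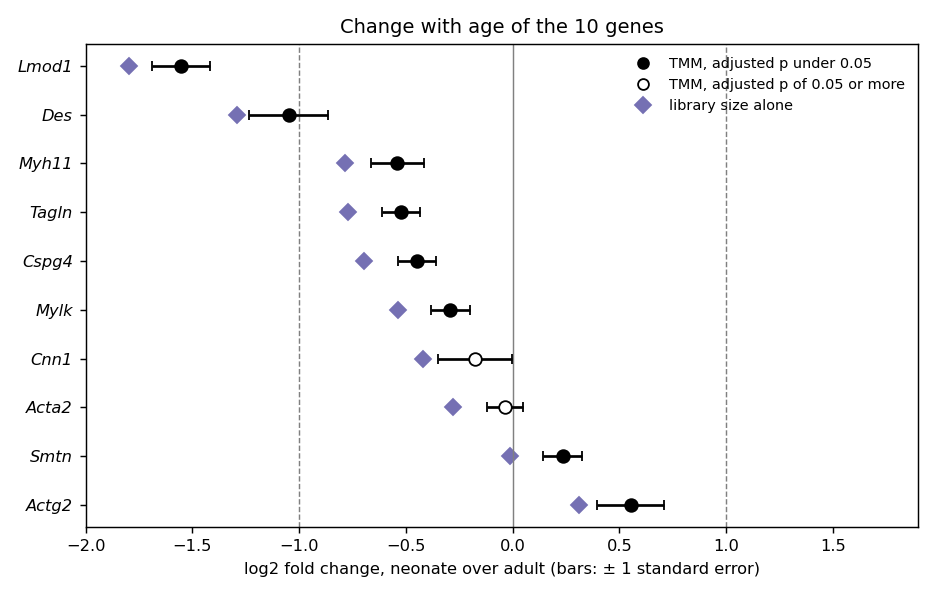
Log2 fold change, neonate over adult, of the 10 genes by edgeR with TMM (circles, bars ± 1 standard error; filled where the adjusted p is under 0.05) and with library size alone (purple diamonds); dashed lines mark 2-fold. Lmod1 (-1.55) and Des (-1.05) lie past the 2-fold line, Acta2 and Cnn1 are open, and library size alone moves every gene to the left.

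Myosin and its kinase were represented by Myh11 and Mylk. Myh11, whose product is the myosin heavy chain most restricted to smooth muscle, had 142 and 154 CPM in neonates and 217 and 294 CPM in adults. Both neonatal libraries were below both adult ones, which differed from each other. The log2 fold change was -0.54 (standard error 0.12, edgeR adjusted p = 0.0047), or 1.45-fold lower in neonates. Without adult replicate 2 it was -0.34 (edgeR adjusted p = 0.0090).

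Mylk was at 127 and 137 CPM in neonates and at 176 and 208 CPM in adults. The log2 fold change was -0.29 (standard error 0.090, edgeR adjusted p = 0.0195), or 1.22-fold lower in neonates. This small change lost its call without neonate replicate 1 (-0.25, edgeR adjusted p = 0.086) and without adult replicate 2 (-0.20, edgeR adjusted p = 0.090).

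Des encodes desmin, the intermediate filament that ties the contractile apparatus together in all muscle types and marks many pericytes. Its level was 7.02 and 9.76 CPM in neonates and 18.03 and 23.1 CPM in adults. Both neonatal values were under both adult values, a 2.07-fold difference (log2 fold change -1.05, standard error 0.19, edgeR adjusted p = 0.0011). Without neonate replicate 1 the log2 fold change was -0.84 and without adult replicate 2 it was -0.90, both called but short of 2-fold, which left Lmod1 as the 1 gene past 2-fold in these fits. Desmin is also made by striated muscle. The skeletal muscle genes summed to 25.5 and 30.8 CPM in neonates and 54.3 and 60.0 CPM in adults, with Myh3 lower in neonates (-1.76). Those other than Myh3 summed to 15.5 and 23.3 CPM in neonates and 18.4 and 25.4 CPM in adults. The heart muscle genes summed to 8.21 and 9.04 CPM in neonates and 3.68 and 3.94 CPM in adults. The part of such muscle in the change of Des was not tested.

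Cspg4 encodes NG2, the surface proteoglycan by which pericytes are usually recognised and which glial precursors also carry. It had 44.2 and 43.9 CPM in neonates and 68.1 and 74.5 CPM in adults. The libraries of an age were close to each other and the ages well apart. The log2 fold change was -0.45 (standard error 0.091, edgeR adjusted p = 0.0024), or 1.36-fold lower in neonates. The glial gene Cdh19 (-0.93) was lower in neonates too, while Sox10 was at 0.31 (edgeR adjusted p = 0.013). Of the 6 glial genes tested, 3 were lower, against 31.1% of all genes tested, and 1 higher, against 31.2%. The part of glia in the change of Cspg4 was not tested.

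In TMM-scaled CPM both neonatal libraries lay below both adult libraries for 7 of the 10 genes, against 41.7% of all genes tested, and above them for 2, against 41.3%. Within an age, adult replicate 2 was above adult replicate 1 for 10 of 10 genes, where 50.8% of all genes tested were, and neonate replicate 2 was above neonate replicate 1 for 8 of 10, where 49.5% were. The libraries of an age thus differed in the level of these genes together, with a gap in Myh11 of 0.42 on the log2 scale between the adult libraries.

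A ratio of 2 genes within a library does not move with the scaling, and each gene was therefore set against Acta2 in the same library. This takes Acta2 as the reference, and its own log2 fold change after TMM scaling was -0.03. The ratios therefore nearly repeat the TMM values and are not a separate check on them. Relative to Acta2, 7 genes (Myh11, Tagln, Cnn1, Des, Lmod1, Cspg4 and Mylk) were lower in both neonatal libraries than in both adult ones, against 38.5% of all genes tested, and Smtn and Actg2 were higher, against 41.5%. On the log2 scale the ratio of Lmod1 to Acta2 was -4.68 and -4.57 in neonates and -3.18 and -3.03 in adults, a 2.87-fold lower ratio in neonates. The ratio of Des to Acta2 was 2.03-fold lower in neonates, with -4.99 and -4.70 in the neonatal libraries and -3.96 and -3.70 in the adult ones. For Myh11 the ratio was -0.65 and -0.73 in neonates and -0.37 and -0.03 in adults. The ratio of Actg2 to Acta2 was 1.49-fold higher in neonates, at -3.98 and -3.77 against -4.50 and -4.41. These are differences between ages of 1 ratio and not levels of one gene against another, which would need transcript lengths. With 2 libraries against 2, an exact permutation test of a single ratio cannot give a two-sided p below 0.333, so no test was run.

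**Figure D3:**
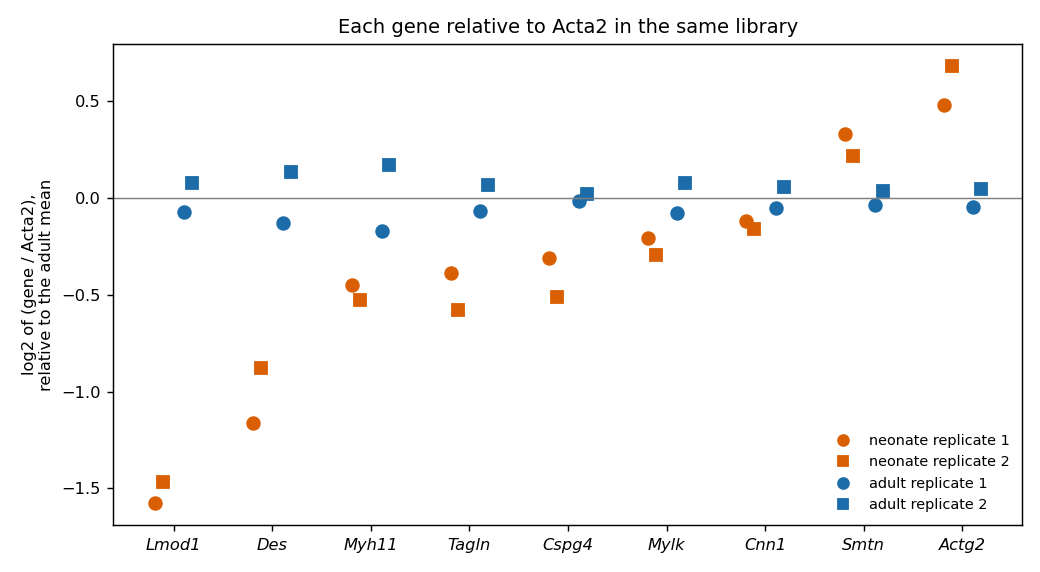
Log2 ratio of the estimated count of each gene to that of Acta2 in the same library, shown relative to the mean of the 2 adult libraries; orange marks neonates, blue adults, circles replicate 1 and squares replicate 2. Lmod1 and Des lie farthest below the adult mean in neonates, Smtn and Actg2 lie above it, and Cnn1 lies closest to it.

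The rest of the contractile pathway was called in both directions. All genes tested were too, with 31.1% lower in neonates and 31.2% higher. Of 16 contraction partners tested, 6 were lower in neonates, 4 were higher and 6 did not pass, with a median log2 fold change of -0.05. Pln, which encodes phospholamban, the brake of the calcium pump of the sarcoplasmic reticulum, had 2.51 and 1.30 CPM in neonates and 10.3 and 13.0 CPM in adults (log2 fold change -2.36, edgeR adjusted p = 0.00028). Kcnmb1, the smooth muscle subunit of the calcium-activated potassium channel, was near the lower limit of the genes tested, at 0.380 and 0.701 CPM against 2.12 and 2.34 CPM (log2 fold change -1.80, edgeR adjusted p = 0.0049). Tpm1, a tropomyosin, rose in neonates to 463 and 532 CPM from 307 and 334 CPM (0.88, edgeR adjusted p = 6.0e-05), and so did Myl6, an essential myosin light chain of muscle and other cells (0.74, edgeR adjusted p = 0.00011). The higher genes here also included Myl9 and Tpm2, named after their values were seen. Scaled to library size alone, which moved the median of all genes tested to -0.25, 8 of the 16 were lower and 2 higher. The share of all genes called under that scaling is not given here.

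For 15 genes of the smooth muscle cytoskeleton and its adhesions, the median was -0.22. Of these, 7 were lower in neonates, against 31.1% of all genes tested, and 4 higher, against 31.2%. The change of Synpo2, which encodes the actin-bundling synaptopodin 2, was the largest of these, from 8.87 and 9.65 CPM in adults to 0.836 and 0.935 CPM in neonates (log2 fold change -3.14, edgeR adjusted p = 2.2e-05). Synm, whose product synemin is a partner of desmin in intermediate filaments, had 26.2 and 34.0 CPM in neonates and 138 and 142 CPM in adults (-1.98, edgeR adjusted p = 3.5e-06). Itga1, an integrin chain that binds collagen, was lower in neonates as well (-2.04). Flna and Vcl, at -0.04 and -0.06, did not pass the test, and Pdlim3 (1.55) and Pdlim7 (1.04) were over 2-fold higher in neonates. These 4 were named after their values were seen.

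Of 8 genes of the SRF pathway tested, 3 were lower in neonates, against 31.1% of all genes tested. In the same list 1 was higher, against 31.2%, and 4 did not pass. Srf had 39.9 and 43.2 CPM in neonates and 66.8 and 66.6 CPM in adults, which gave -0.44 on the log2 scale (standard error 0.089, edgeR adjusted p = 0.0025). Myocd, the myocardin gene, was found at only 0.63 and 0.57 CPM in neonates and 1.56 and 1.71 CPM in adults (-1.19, standard error 0.39, edgeR adjusted p = 0.025). Its call was lost with DESeq2 (-1.19, adjusted p = 0.080) and, in edgeR, without neonate replicate 2 (-1.08, adjusted p = 0.052). Mrtfa, a coactivator related to myocardin, was lower in neonates (-0.58, edgeR adjusted p = 0.0054). Gata6 did not pass the test (0.28, edgeR adjusted p = 0.24).

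Markers of mural cells that are not part of the contractile apparatus were called in both directions, with a median of 0.09. Of 12 tested, 5 were lower in neonates, against 31.1% of all genes tested, and 6 higher, against 31.2%. Rgs5, a G protein regulator often used as a pericyte marker, was at 272 and 247 CPM in neonates and 1088 and 1062 CPM in adults. It was 3.49-fold lower in neonates (log2 fold change -1.80, edgeR adjusted p = 3.1e-06), and which cells carried it was not tested. Notch3, the Notch receptor of mural cells, was at 33.7 and 34.2 CPM against 67.6 and 93.8 CPM (a difference of -1.001, edgeR adjusted p = 0.00030). Higd1b (-1.10) and Vtn (-1.01) were lower in neonates, although the call of Vtn was lost without adult replicate 2 (-0.82, edgeR adjusted p = 0.092). Pdgfrb, the receptor through which mural cells are recruited to vessels, was slightly higher in neonates (0.31, edgeR adjusted p = 0.021). Its call was lost with library size alone (0.07, edgeR adjusted p = 0.62), without neonate replicate 2 (0.22, edgeR adjusted p = 0.11) and without adult replicate 1 (0.21, edgeR adjusted p = 0.14). Mcam (0.63) and Heyl (0.87), named after their values were seen, were higher in neonates. Scaled to library size alone, which moved the median of all genes tested to -0.25, 5 of the 12 were lower and 3 higher. The share of all genes called under that scaling is not given here.

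The mean log2 CPM of the 10 contractile and pericyte genes minus that of these 12 mural genes was -0.42 and -0.23 in the neonatal libraries and -0.14 and -0.11 in the adult ones. It was lower in both neonatal libraries than in both adult ones, by 0.20 on average, and the gap between neonate replicates 1 and 2 was about as large.

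**Figure D4:**
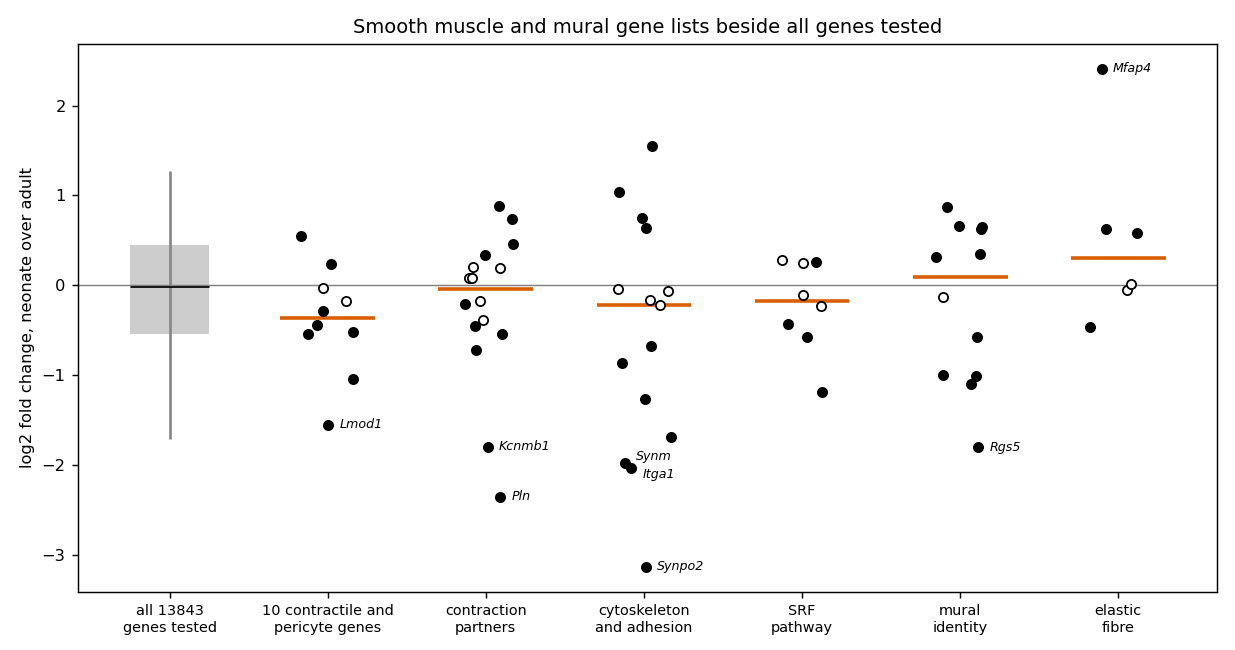
Log2 fold change, neonate over adult, of all 13843 genes tested (grey box from the 25th to the 75th percentile, line from the 5th to the 95th) and of each gene of 6 lists; filled points have an edgeR adjusted p under 0.05, and orange lines are medians. Of the 6 lists drawn, the 10 contractile and pericyte genes have the lowest median, -0.37, and range from -1.55 to 0.55. Fibroblast and adipocyte genes, not drawn, have lower medians, -0.86 and -2.13. Every list drawn has genes on both sides of 0, and Synpo2 lies lowest at -3.14.

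Of 6 genes of the elastic fibres that mural cells and fibroblasts lay down in artery walls, 1 was lower in neonates and 3 were higher. Over all genes tested the shares were 31.1% lower and 31.2% higher. Eln, the elastin gene, was at 1588 and 2129 CPM in neonates and 2042 and 2313 CPM in adults (0.01, edgeR adjusted p = 0.93), with overlap between the ages. Mfap4, a microfibril-associated protein, was 5.32-fold higher in neonates (2.41, edgeR adjusted p = 3.9e-06), Emilin1 (0.62) and Fbln5 (0.59) were higher by less, and Fbn1 was lower (-0.46, edgeR adjusted p = 0.0050).

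Levels of other cell types also differed between the libraries. Beside the counts below, 31.1% of all genes tested were lower in neonates and 31.2% higher. Median log2 fold changes were -0.86 for fibroblast, -2.13 for adipocyte, 0.05 for endothelial and 1.80 for red blood cell genes. Fibroblast genes were lower in neonates for 5 of 6 tested, with a summed level of 5691 and 7159 CPM in neonates and 9219 and 9882 CPM in adults. Endothelial genes went both ways, 3 of 8 lower and 2 higher, with a summed level of 1120 and 1198 CPM in neonates and 1312 and 1384 CPM in adults. Adipocyte genes were lower in neonates for 3 of 4 tested, with sums of 6.37 and 7.87 CPM against 27.1 and 43.6 CPM. Red blood cell genes were higher in neonates for 4 of 4, with sums of 11615 and 6846 CPM against 3031 and 2682 CPM. The part of these differences in the values of the contractile genes was not tested.

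**Figure D5:**
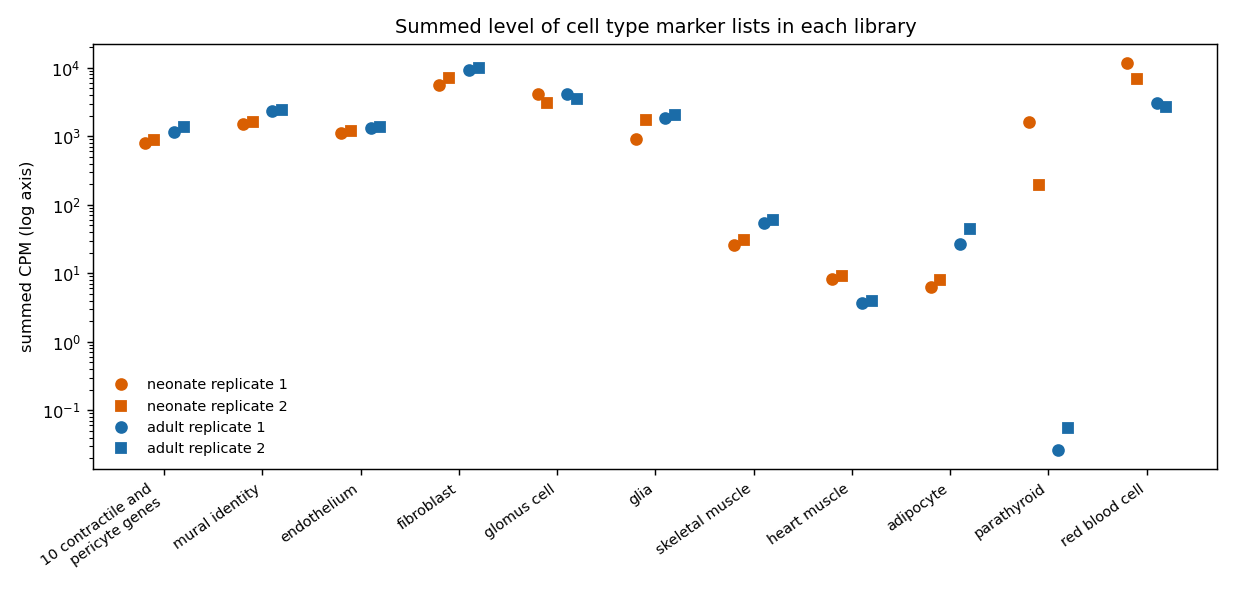
Summed CPM of each marker list in each library on a log axis, with orange for neonates, blue for adults, circles for replicate 1 and squares for replicate 2. The 10 contractile and pericyte genes sum to 807 and 874 CPM in neonates and 1144 and 1347 CPM in adults, and parathyroid genes are at 1616 and 197 CPM in neonates and under 0.1 CPM in adults.

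The genes with the pattern most like that of Myh11 were found by the root-mean-square distance of their log2 CPM, centred over the 4 libraries, among 9921 other genes with a mean of at least 10 CPM. Among the nearest 5 were Nedd9 (distance 0.016), Srrm2 (0.025), Rftn2 (0.034) and NEWGENE_621351 (0.034). Nedd9, a docking protein of focal adhesions, had 22.4 and 24.9 CPM in neonates and 35.05 and 46.7 CPM in adults. Of the contractile and pericyte genes, Tagln came closest to Myh11 (0.083, position 48), followed by Cspg4 (0.12, position 256) and Mylk (0.14, position 364), and Actg2 was the farthest (0.55). Over 4 libraries that mostly part by age, such a distance describes a change of like size and no more.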

How the data were processed

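The authors deposited estimated counts per gene, 1 column per library, not normalized and not filtered. Per the methods of the study and the processing notes, paired-end reads of poly A+ selected RNA were processed with STAR and Salmon 1.5.2 on Rnor_6.0, and Salmon estimates were summed to genes, so reads that fit several genes were shared out by estimation. The strand setting is not given in the sources used here. In GRCr8, Des, Lmod1 and Mylk overlap long noncoding RNAs, Mylk a pseudogene and Cspg4 the gene Cimap1c, whose reads may be mixed with theirs.

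Estimated counts were rounded. Of 32883 genes, 636 were set aside by their RefSeq annotation as noncoding, and 13843 reached 1 CPM in 2 or more libraries and were tested, neonate over adult, by edgeR 4.0.16 (quasi-likelihood, TMM, Benjamini-Hochberg, R 4.3.3) without covariates. Standard errors are the log2 fold change divided by the root of F. TMM factors were 0.902, 0.935, 1.08 and 1.10. Replicates differed beyond sampling noise (chi-square per degree of freedom 32.6 in neonates and 15.4 in adults). In a test with known answers, 76 of 100 genes changed by 1 and 94 of 100 changed by 2 on the log2 scale were recovered. That test held 13843 genes in all, changed ones included, and 2 of those left unchanged were called. Alternatives used DESeq2 1.42.0 and limma 3.58.1.

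The genes and lists were chosen with earlier results of these data known. Named were the 10 genes, up to 4 genes with the largest change in each related list, Srf, Myocd, Pdgfrb, Rgs5 and Notch3, and the 5 genes nearest to Myh11; Eln, Th, Pth and the glial genes with values were chosen after these were seen. Prkg1, Mrtfb, Pecam1, Col1a2, Myh1 and Myh2 are not analysed here, proteins were not compared, and some genes that the rule names are not reported here. The labels call the libraries biological replicates.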

Additional observations from a re-analysis of the deposited data

How the results depend on the processing

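Lmod1, Des, Myh11, Tagln and Cspg4 kept their direction and their call under all 13 alternatives, and Cnn1 kept its direction and did not pass in any. Library size alone moved the median of all genes from -0.0029 to -0.25, made Acta2 lower (-0.28), Smtn reverse (-0.012) and Actg2 miss the threshold (0.31), and turned 1063 higher and 1822 lower genes past 2-fold into 704 and 2550, or 21.6% higher in place of 36.8%. It left 0 of the 10 genes higher, where TMM gave 2 by edgeR at an adjusted p under 0.05, and moved the higher genes to 2 contraction partners, 0 of the SRF pathway and 3 mural genes, and the lower elastic fibre genes to 2. Smtn lost its call with DESeq2 (0.23), no filter (0.21), a mean of at least 5 CPM (0.20) and all genes kept (0.23), each of which left 1 of the 10 higher. A mean of at least 5 CPM left 1169 lower and 654 higher genes past 2-fold. With no minimum fold, 4300 genes were lower and 4325 higher, 6 and 2 of the 10. Leaving out 1 library gave -0.10 to 0.045 for Acta2, 0.13 to 0.28 for Smtn, -0.43 to -0.20 for Mylk and 0.39 to 0.72 for Actg2, 1 to 2 of the 10 past 2-fold, 0 to 1 of the 10 higher, 0 to 1 of the SRF pathway higher and 3 to 6 mural genes higher; the lone library of an age is then assumed to vary like the others. The replicate block gave 2 higher SRF pathway genes in place of 1 and changed no call of the 10 genes. Deviations of same-numbered libraries correlated at -0.015 over genes, with 1 deviation per age, so pairing of the libraries, as by litter, was not settled. For the 10 genes, replicate 2 was above replicate 1 for 10 in adults and 8 in neonates. The causes were not tested. The shares of all genes called under these alternatives at an adjusted p under 0.05 alone are not given here. The counts of listed genes therefore have no background beside them and are not results about those genes. The depth limits Myocd and Kcnmb1, which lie near 1 CPM.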

Other observations

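Sarcomere genes of striated muscle, chosen after their values were seen, went both ways. Tnnt2, cardiac troponin T, was at 5.22 and 6.49 CPM in neonates and 2.49 and 2.43 CPM in adults (log2 fold change 1.49, edgeR adjusted p = 0.0010), and Tnni3, cardiac troponin I, was at 2.18 and 2.13 CPM against 0.85 and 1.05 CPM (1.43, edgeR adjusted p = 0.0070). Myh3 was lower in neonates, at 10.01 and 7.51 CPM against 35.9 and 34.6 CPM (-1.76), while Acta1, skeletal alpha-actin, was at 5.27 and 7.58 CPM against 3.997 and 5.54 CPM and did not pass the test (0.67, edgeR adjusted p = 0.054). Ppp1r12b, a myosin phosphatase subunit of muscle, differed between the adult libraries, with 47.3 and 75.8 CPM, against 29.4 and 33.8 CPM in neonates (-0.72, edgeR adjusted p = 0.0081).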
